A study of Bos taurus with 96 samples.

Results

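PDK4 (ENSBTAG00000014069) encodes pyruvate dehydrogenase kinase 4 and was followed here as a single row of the deposited count files, 1 of 24616 gene identifiers, picked out by its identifier. The kinase phosphorylates the pyruvate dehydrogenase (PDH) complex of the mitochondrion and thereby switches it off, so that pyruvate from glucose, lactate and amino acids is kept from entering the citric acid cycle. PDK4 is known as the member of its family that fasting induces, in skeletal muscle, heart and liver, through fatty acids, glucocorticoids and the transcription factor FOXO1, and that insulin represses. By sparing pyruvate while a tissue burns fatty acids it leaves 3-carbon units for gluconeogenesis, on which a ruminant that is making milk depends heavily.

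The samples came from 16 Holstein dairy cows of a single herd, 8 in each of 2 groups of opposite genetic merit for calving interval, good fertility (Fert+) and poor fertility (Fert-). Each group mixed cows in their first and second parity, and the cows of a group had been chosen with different sires, so the contrast between groups is one of breeding value and not of a treatment or a single allele. Liver was taken by puncture biopsy and muscle from the semitendinosus of every cow at 3 time-points: late pregnancy (LP, on average day -18 relative to calving), early lactation (EL, day 1) and mid lactation (ML, week 21). This gave 96 libraries of polyadenylated RNA, 48 per tissue and 8 per tissue, time-point and fertility group. No cow was treated, and all cows received the same management. The EL samples therefore differ from the LP samples by calving, the start of milk production and everything that accompanies them.

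Gene counts summed to between 14966847 and 26358063 per liver library (median 20466943.5) and to between 15279337 and 22018740 per muscle library (median 17612182). PDK4 took 382 to 18632 of these counts in liver and 3023 to 160937 in muscle, so counting error was small beside the differences between cows. Levels are given as CPM (counts scaled to a common library total), scaled by the trimmed mean of M-values (TMM) over the 48 libraries of a tissue. CPM values are not corrected for gene length and are compared between libraries, never between genes.

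The labelled tissues matched their markers: 8 hepatocyte markers summed to at least 72031 CPM in every liver library and to at most 172 CPM in any muscle library, and 8 skeletal muscle markers summed to at most 0.58 CPM in any liver library. A calving score was computed for every library from the 300 genes, PDK4 left out, whose EL level departed most from the mean of LP and ML in the other 15 cows of the tissue. A score of 0 stands for the mean of LP and ML and 1 for the mean of EL. In all 16 cows the muscle score was higher at EL than at LP, but in liver it was lower at EL in 2 cows. Cow 426 (Fert-) had a liver score of 1.32 at LP and 0.18 at EL, against its labels, and cow 3434 (Fert+) had 0.30 at LP and -0.14 at EL. A set of 13 libraries (8 of liver, 5 of muscle), here called set B, held counts for 19 genes that had next to none in the other libraries, set A. The labels name no such split, which was drawn from the counts alone, and results are also given without those libraries and without these cows where they touch a value. Set B was spread unevenly over the fertility groups. Its 5 muscle libraries were all from Fert- cows. Its liver libraries were 2 Fert+ at each time-point, against 0 Fert- at LP, 1 at EL and 1 at ML.

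**Figure D1:**
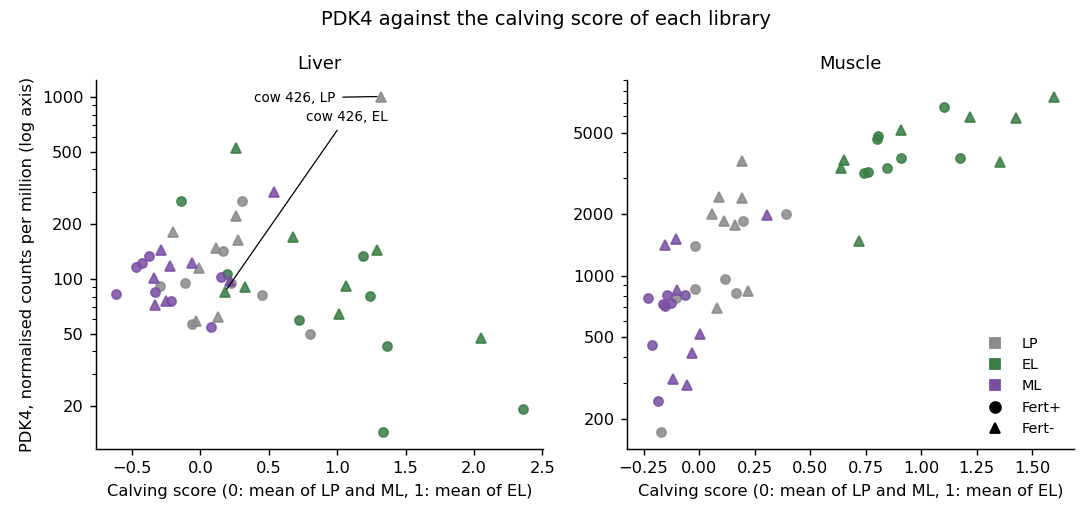
Calving score (0: mean of LP and ML, 1: mean of EL) against PDK4 level (CPM, log scale) for each library, by tissue and time-point. The liver library labelled LP of cow 426 lies at a score of 1.32 and 1008 CPM, apart from the other liver LP libraries.

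The time course within cows asked how PDK4 changed around calving in each tissue. In muscle PDK4 was highest on the day after calving and lowest in mid lactation. At LP the 8 Fert+ cows ranged from 173 to 2005 CPM with a median of 912, and the 8 Fert- cows from 694 to 3616 with a median of 1925. At EL the Fert+ cows ranged from 3164 to 6667 CPM with a median of 3761, and the Fert- cows from 1477 to 7504 with a median of 4406. All 8 Fert+ cows were higher at EL than any Fert+ cow at LP, whereas the Fert- ranges of LP and EL overlapped. At ML the Fert+ cows ranged from 245 to 807 CPM with a median of 732, and the Fert- cows from 294 to 1987 with a median of 684. In Fert+ cows no ML library reached the lowest EL library, while in Fert- cows the highest ML library lay above the lowest EL library.

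**Figure D2:**
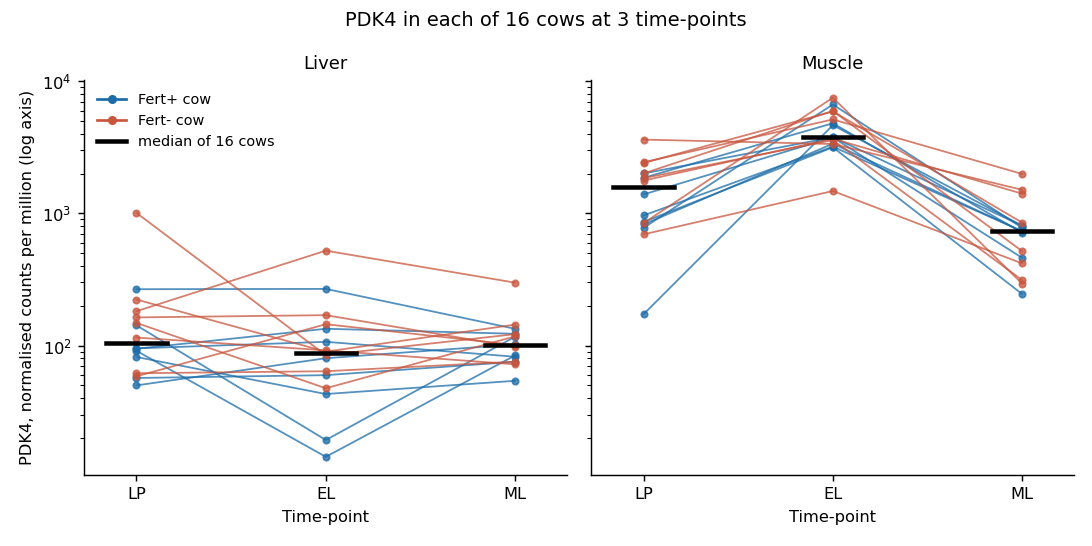
PDK4 level (CPM, log scale) at LP, EL and ML in liver and muscle, 1 line per cow coloured by fertility group, with the median of the 16 cows as a bar. In muscle that median of the 16 cows went from 1581 CPM at LP to 3761 at EL and 732 at ML, while in liver it was 105, 87.2 and 102.

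Over all 16 cows the muscle level was 3.17-fold higher at EL than at LP, a log2 change of 1.66 ± 0.25 (SE) with an adjusted p of 2.33e-06 by edgeR's quasi-likelihood test with cow as a block. Of the 12675 genes tested in muscle 57.6% passed this test in either direction, so a call alone did not set PDK4 apart, but its fold change was the 64th from the top. From EL to ML it fell 6.08-fold (log2 -2.60 ± 0.26, adjusted p 9.11e-10 by edgeR), the 33rd from the bottom in a comparison in which 63.3% of genes passed. The ML level was also below the LP level, 1.92-fold (log2 -0.94 ± 0.25, adjusted p 0.0152 by edgeR), the 81st from the bottom, and here 9.39% of genes passed. Because these are bulk samples, a lower level may come from fewer cells of a type or from less RNA per cell, which cannot be told apart.

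Taken cow by cow, muscle PDK4 was higher at EL than at LP in 15 of 16 cows, with a mean log2 difference of 1.70 ± 1.14 (SD, n = 16, exact sign-flip permutation test, two-sided, p 6.1e-05). The rise ran from none to very large. In cow 164 (Fert-), whose LP level of 3616 CPM was the highest of all, PDK4 stood at 3348 CPM at EL, and in cow 430 (Fert+), whose LP level of 173 CPM was the lowest, it reached 4648 CPM, 26.9-fold higher. The median cow rose 2.64-fold. From EL to ML PDK4 was lower in 16 of 16 cows, by a mean log2 difference of -2.62 ± 0.96 (SD, n = 16), with an exact permutation p of 3.05e-05, the smallest that 16 cows allow. ML was below LP in 15 of 16 cows (mean -0.91 ± 1.11 SD, n = 16, exact permutation p 0.00693), the exception being cow 430 at 807 CPM. In cow 756 (Fert+) the levels were almost equal, 777.8 CPM at LP and 777.5 at ML.

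**Figure D3:**
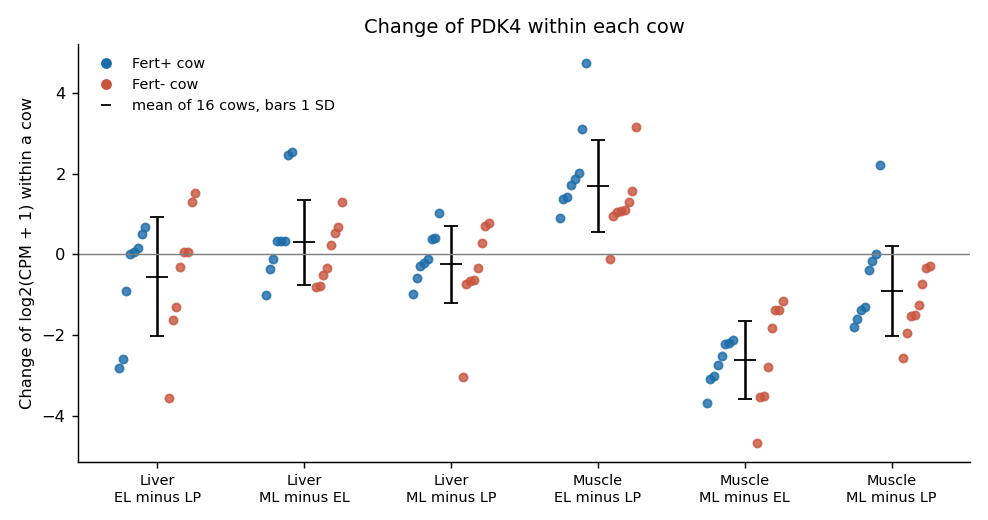
PDK4 differences within each cow (log2 of CPM plus 1) for EL minus LP, ML minus EL and ML minus LP in liver and muscle, 1 point per cow, with the mean and SD of the 16 cows as bars. In muscle 15 of 16 cows lie above 0 for EL minus LP and 16 of 16 below 0 for ML minus EL, while the liver points lie on both sides of 0.

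The muscle samples changed in other ways between the same time-points. The summed level of the 8 skeletal muscle markers ranged from 118034 to 202694 CPM at LP (median 174977), from 12930 to 176034 at EL (median 52409) and from 171263 to 262939 at ML (median 208680). All 8 of these markers were lower at EL than at LP by edgeR's test, as were all 8 identifiers of the 7 slow fibre markers, whose median sums were 37886, 22166 and 35103 CPM. Across the 48 muscle libraries the sum of the 8 skeletal muscle markers had a Pearson r of -0.68 with PDK4 on the log2 scale, and of -0.015 once the mean of each fertility group and time-point had been removed. The 2 matched adipocyte markers had median sums of 4.97, 3.29 and 10.1 CPM, and the hepatocyte markers of 2.81, 2.84 and 11.8 CPM. The part of these changes in the PDK4 result was not tested.

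In liver no change of PDK4 passed the test, and individual cows moved both ways. At LP the Fert+ cows ranged from 49.95 to 267 CPM with a median of 93.0, and the Fert- cows from 58.5 to 1008 with a median of 156. At EL the ranges were 14.4 to 268 (median 69.95) in Fert+ and 47.5 to 522 (median 90.9) in Fert- cows, and at ML 54.1 to 134 (median 93.1) and 72.1 to 299 (median 109). The ranges of all 3 time-points overlapped in both groups. The spread between cows was wider at LP and EL than at ML, with 3 cows far above the others of their fertility group: cow 426 (Fert-) with 1008 CPM at LP, cow 996 (Fert-) with 522 at EL and 299 at ML, and cow 3434 (Fert+) with 267 at LP and 268 at EL.

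None of the 3 liver comparisons passed edgeR's test. The log2 change was -0.49 ± 0.30 from LP to EL (adjusted p 0.342), where 3.07% of the 13815 genes tested passed, 0.16 ± 0.29 from EL to ML (adjusted p 0.688), where 41.8% passed, and -0.33 ± 0.29 from LP to ML (adjusted p 0.469), where 15.9% passed. PDK4 was lower at EL than at LP in 7 of 16 cows and higher in 9, and the mean difference of -0.55 ± 1.47 (SD, n = 16, exact permutation p 0.157) included 3 large falls, in cow 426 (-3.56), cow 3847 (-2.82) and cow 756 (-2.58). At EL cow 3847 had 19.3 CPM and cow 756 had 14.4 CPM, the lowest liver levels of the study. For ML minus EL 9 cows were higher and 7 lower (exact permutation p 0.288, n = 16), and for ML minus LP 6 were higher and 10 lower (exact permutation p 0.342, n = 16). Without cow 426 the LP to EL change was -0.25 (adjusted p 0.559 by edgeR), without cows 426 and 3434 it was -0.30 (adjusted p 0.467), without cows 426 and 996 it was -0.38 (adjusted p 0.355), and without set B it was -0.40 (adjusted p 0.616).

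Both tissues came from the same cows, so the course could be compared between them in a fit of all 96 libraries. The change from LP to EL was larger in muscle than in liver by 2.16 ± 0.39 on the log2 scale (adjusted p 1.90e-05 by edgeR, with 28.9% of 14613 genes passing), and the change from EL to ML was more negative in muscle, by -2.82 ± 0.39 (adjusted p 2.84e-08, with 38.7% passing). The difference between tissues from LP to ML was -0.66 ± 0.39 (adjusted p 0.294, with 9.28% passing). Leaving out the liver libraries of cow 426 gave 1.94, -2.80 and -0.87, the first 2 still past the threshold.

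Muscle held more PDK4 than liver at every time-point. Within cows the muscle level was 11.7-fold the liver level at LP (log2 3.55 ± 0.25), 51.6-fold at EL (5.69 ± 0.38) and 7.31-fold at ML (2.87 ± 0.15), with adjusted p-values of 3.19e-11, 5.68e-12 and 6.21e-14 by edgeR. Most genes differ between such unlike tissues: 88.9%, 85.9% and 89.1% of genes passed in these comparisons, and the scaling between tissues rests on the genes that both express. PDK4 made up a median of 0.143% of the counts of a muscle library at LP, 0.485% at EL and 0.0639% at ML, and up to 0.883% in a single EL library. In liver the medians were 0.00995%, 0.00817% and 0.0115%. Ordered by median CPM the 6 levels were muscle at EL, LP and ML, then liver at LP, ML and EL, and the last 3 did not differ beyond their spread.

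The comparison of the study itself was Fert+ against Fert- cows, tested within each tissue and time-point on 16 libraries. PDK4 was not called in any of the 6 comparisons, and hardly any other gene was. Set B was unevenly spread over the fertility groups, and without it edgeR called 0 genes in each of the 6. In late pregnancy 7 of 8 Fert+ cows lay below the Fert- median in liver as well as in muscle, with the groups overlapping in both. The liver difference at LP was -1.16 ± 0.56 on the log2 scale (p 0.0545, adjusted p 0.773 by edgeR, 0% of 12872 genes called; exact permutation p 0.193, n = 8 per group). In muscle at LP it was -0.82 ± 0.40 (p 0.0570, adjusted p 0.744 by edgeR, 0% of 11954 genes called; exact permutation p 0.0656, n = 8 per group). Without cow 426 the liver difference at LP was -0.30 ± 0.37 (adjusted p 0.998).

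At EL the difference was -0.74 ± 0.58 in liver (adjusted p 0.588 by edgeR, 0% of 13047 genes called) and -0.14 ± 0.26 in muscle (adjusted p 0.879, 0.00831% of 12035 genes called, a single gene). At ML it was -0.42 ± 0.26 in liver (adjusted p 0.532 by edgeR, 0% of 13235 called) and -0.47 ± 0.41 in muscle (adjusted p 0.830, 0% of 12001 called). The exact permutation p-values with n = 8 per group were 0.190 and 0.907 at EL and 0.272 and 0.634 at ML. At ML 6 of 8 Fert+ cows were above the Fert- median in muscle, although the fitted difference was below 0, since the highest 3 muscle levels, 1987, 1507 and 1410 CPM, belonged to Fert- cows. Where edgeR called no gene, an unadjusted p below 0.05 was found for 842 (LP), 1530 (EL) and 1640 (ML) liver genes and for 800 (LP) and 918 (ML) muscle genes. DESeq2 called 0, 12, 76, 27 and 14 genes in those 5 comparisons.

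**Figure D4:**
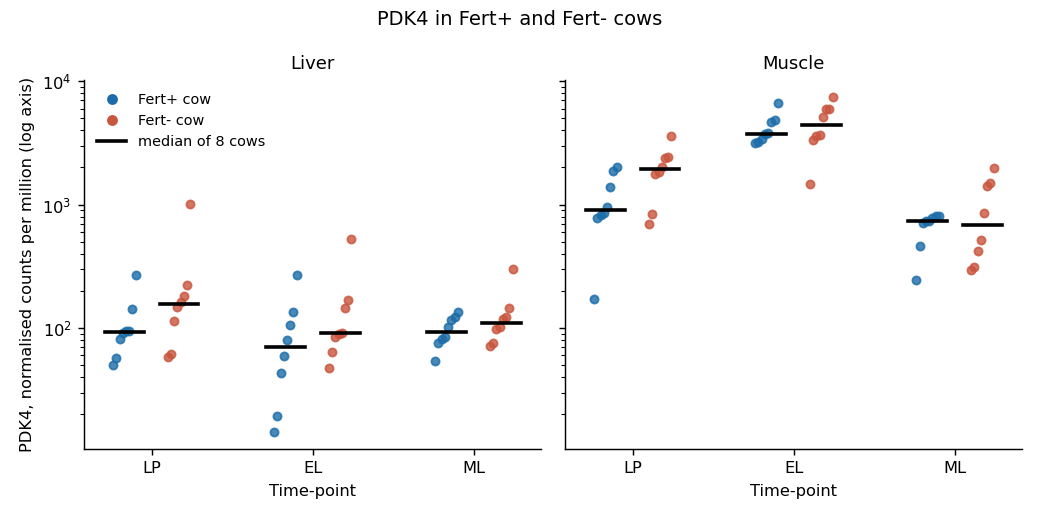
PDK4 level (CPM, log scale) of the 8 Fert+ and 8 Fert- cows side by side at LP, EL and ML in liver and muscle, with group medians as bars. The groups overlap at all 3 time-points in both tissues, and at LP the Fert- medians, 156 CPM in liver and 1925 in muscle, lie above the Fert+ medians of 93.0 and 912.

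edgeR's exact test with 1 common dispersion for all genes called PDK4 lower in Fert+ cows at LP in liver (adjusted p 5.49e-07) and in muscle (adjusted p 7.43e-05), and not in the other 4 comparisons. At LP the same test called 306 of all genes in liver and 214 in muscle. The study's methods name a common dispersion but not which test was run on it, and the gene filter used here is another. A common dispersion gives every gene the same spread between cows. PDK4 was among the genes that varied most: within groups its SD on the log2 scale at LP was 1.05 in liver and 0.96 in muscle, against a median over all genes of 0.248 and 0.241, and 99.1% and 99.5% of genes had a smaller SD. At EL the SD was 1.23 in liver and 0.58 in muscle, and at ML 0.55 and 0.88, each above that of at least 91.6% of genes. The part of this spread in the LP calls was not tested.

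The time course was also compared between the fertility groups. In Fert+ muscle PDK4 rose from LP to EL by 1.99 ± 0.36 (adjusted p 1.04e-04 by edgeR, 39.9% of genes passing) and in Fert- muscle by 1.34 ± 0.36 (adjusted p 0.00300, 45.1% passing). The difference between these rises was 0.65 ± 0.50 (adjusted p 0.648, with 2 genes or 0.0158% passing), within the error. The fall from EL to ML was -2.69 ± 0.37 in Fert+ (adjusted p 1.02e-06, 47.3% passing) and -2.52 ± 0.38 in Fert- cows (adjusted p 2.45e-06, 50.8% passing), and these differed by -0.16 ± 0.50 (adjusted p 0.967, 0% passing). For LP to ML the changes were -0.70 (adjusted p 0.349, 2.37% passing) and -1.18 (adjusted p 0.0821, 1.6% passing), neither of them past the threshold in a group taken alone by edgeR, with a difference of 0.48 ± 0.50 (0% passing). In liver no step passed in either group. The changes were -0.47, 0.40 and -0.07 in Fert+ cows, where 8.48%, 32.6% and 0.34% of genes passed, and -0.50, -0.09 and -0.59 in Fert- cows, where 0%, 9.01% and 8.85% passed, the 0% of LP to EL being 0 genes by edgeR against 703 with an unadjusted p below 0.05. The differences between groups were 0.03 ± 0.59, 0.49 ± 0.57 and 0.52 ± 0.58 for the same 3 steps, with 0% of genes passing in each. An unadjusted p below 0.05 was found in the 5 of these tests without a call by edgeR for 1651, 1067 and 380 liver genes and for 1122 and 492 muscle genes, and DESeq2 called 29, 0, 1, 39 and 0.

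Cows that were high in one tissue were compared with their level in the other, and with themselves at other times, in 9 correlations over the 16 cows on log2(CPM + 1). At ML liver and muscle PDK4 rose together across cows (Pearson r 0.68, permutation p 0.00286, adjusted p 0.0257; Spearman rho 0.72, permutation p 0.00227, adjusted p 0.0204). The r was 0.72 without the 2 cows farthest from the liver median, 0.68 after removing the mean of each fertility group, and 0.75 in the 11 cows with both libraries in set A. It was 0.82 in Fert- and 0.31 in Fert+ cows, and lowest, 0.54, without cow 996, which was highest in both tissues. At LP r was 0.56 (permutation p 0.0324, adjusted p 0.0972) and rho 0.66 (permutation p 0.00693, adjusted p 0.0305), with r 0.72 without the 2 farthest cows and 0.53 in the 13 cows of set A. At EL no relation was detected (r 0.03, rho -0.02, adjusted permutation p 0.918 and 0.936).

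Within a tissue none of the 6 Pearson correlations between time-points passed. In liver r was 0.22 between LP and EL, 0.57 between EL and ML and 0.47 between LP and ML, with adjusted permutation p-values of 0.591, 0.0972 and 0.170. For LP and ML the rank correlation passed (rho 0.63, adjusted permutation p 0.0305). The relation of EL and ML fell to 0.27 without the 2 farthest cows. In muscle r was 0.10, 0.12 and 0.33 for the same pairs, with adjusted permutation p-values of 0.800, 0.800 and 0.382.

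The genes around PDK4 were taken from lists of its targets, its regulators and the pathways it gates, as far as a symbol could be paired with an identifier. Of the PDH complex, which PDK4 switches off, 3 of 5 genes could be paired: PDHA1 and PDHB, the subunits of the pyruvate decarboxylase component that carries the phosphorylation sites, and DLD, the dihydrolipoamide dehydrogenase. In muscle all 3 moved opposite to PDK4 between time-points. Once the mean of each fertility group and time-point had been removed, their Pearson r with PDK4 was -0.0066 (DLD), 0.097 (PDHA1) and -0.17 (PDHB). The skeletal muscle markers also fell from LP to EL, and their part in these changes was not tested. The level of DLD averaged 458 ± 63.0 CPM (SD, n = 16) at LP, 296 ± 60.9 at EL and 465.5 ± 49.1 at ML, a log2 change of -0.64 ± 0.07 and then 0.67 ± 0.07 (adjusted p 8.97e-10 and 1.42e-10 by edgeR). PDHB changed by -0.51 and 0.48, and PDHA1 by -0.52 and 0.60, each past the threshold. Over all muscle genes 30% were higher and 27.6% lower at EL than at LP, and 31.7% were higher and 31.6% lower at ML than at EL, so shares of that size are the background for the counts given here. PDP2, a phosphatase that switches the complex back on and the only 1 of 3 phosphatase genes paired, moved the same way as PDK4, at low counts, with means of 1.38, 2.71 and 1.64 CPM (log2 0.81 ± 0.19 and -0.57 ± 0.19, adjusted p 4.19e-04 and 0.00797). The other kinases of the family, PDK1, PDK2 and PDK3, and DLAT, PDHX, PDP1 and PDPR were not analysed here.

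In liver none of these 4 genes passed from LP to EL, where 1.36% of all genes were higher and 1.71% lower, and from EL to ML 21.5% were higher and 20.3% lower. In the second step PDP2 fell by 0.40 (adjusted p 0.0124 by edgeR) and PDHA1 by 0.24 (adjusted p 0.0274), the latter at -0.16 and not past without set B (adjusted p 0.242), while DLD and PDHB had log2 changes of -0.16 and -0.04 that did not pass.

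The 8 genes of pyruvate transport and use were all paired. In muscle 5 of 8 fell from LP to EL and none rose, with a median log2 change of -0.36 against 0.01 over all genes tested, and 7 of 8 rose from EL to ML while 1 fell. LDHA, the lactate dehydrogenase subunit typical of glycolytic muscle, averaged 1511 ± 401 CPM (SD, n = 16) at LP, 481 ± 308 at EL and 1669 ± 381 at ML (log2 -1.86 ± 0.20 and 2.01 ± 0.20, adjusted p 3.36e-09 and 4.11e-10 by edgeR). LDHB, the subunit typical of oxidative tissue, changed by -0.50 and 0.45, and PC, the pyruvate carboxylase that makes oxaloacetate, by -0.80 and 1.49, each past the threshold.

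In liver PC and LDHB were the only 2 of all the paired pathway genes to pass from LP to EL, where 424 of 13815 genes passed. Neither passed without set B (log2 0.65 and 0.67, adjusted p 0.354 and 0.233 by edgeR), where 0 of all genes passed. Nor did they pass without the gene filter (0.91 and 0.68, adjusted p 0.0663 and 0.0503), where 250 genes passed. Without cow 426, where 1382 of all genes passed, PDHA1 (log2 0.28), ACADVL (0.35), SGK1 (0.82), IGFBP1 (1.59) and PIK3R1 (-0.47) passed as well, but PDK4 did not. PC, which there starts gluconeogenesis from lactate and amino acids, averaged 606 ± 592 CPM (SD, n = 16) at LP, 1048 ± 558 at EL and 311 ± 155 at ML. Its log2 changes were 0.91 ± 0.26 (adjusted p 0.0453 by edgeR) and -1.71 ± 0.26 (adjusted p 1.48e-05). LDHB rose by 0.67 (adjusted p 0.0379) and fell by 0.92. From EL to ML 5 of the 8 genes fell in liver and none rose, among them SLC16A1, a carrier of lactate and pyruvate across the cell membrane (log2 -1.26). Liver PDK4 itself passed in neither step.

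Of the PPAR and fatty acid oxidation genes 9 of 19 could be paired and 8 were tested in each tissue. In muscle 5 rose and 1 fell from LP to EL, and 1 rose and 5 fell from EL to ML. UCP3, an uncoupling protein of muscle mitochondria that fasting also induces, averaged 322 ± 141 CPM (SD, n = 16) at LP, 638 ± 280 at EL and 188 ± 102 at ML (log2 0.98 ± 0.18 and -1.77 ± 0.18, adjusted p 2.25e-05 and 7.36e-10 by edgeR). CPT1B, which lets long-chain fatty acids into muscle mitochondria, changed by 0.72 and -0.50, and ACADVL, the first enzyme of long-chain oxidation, by 0.35 and -0.17, each past the threshold, though the last was not without the block by cow (-0.18, adjusted p 0.0589). The list's median log2 change from LP to EL was 0.28 in muscle. In liver no gene of the list passed from LP to EL. From EL to ML 5 of 8 genes fell, CPT1B by 1.20 and ACADVL by 0.57.

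**Figure D5:**
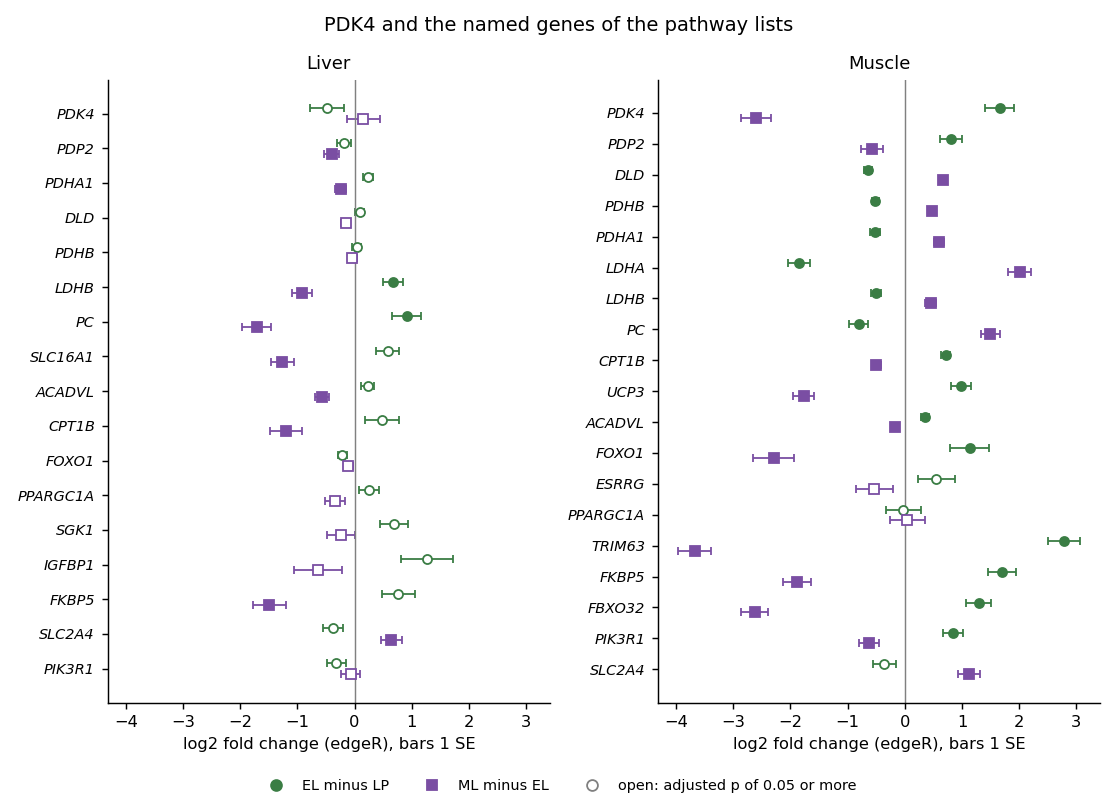
Log2 changes (bars, 1 SE; open symbols, adjusted p of 0.05 or more) of PDK4 and of paired genes from the lists for EL minus LP and ML minus EL in liver and muscle, 16 cows per point. In muscle TRIM63, FKBP5, PDK4, FBXO32 and UCP3 lie above 0 at EL minus LP and below 0 at ML minus EL, and LDHA lies on the other side.

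Of the regulators of PDK4 3 of 11 could be paired. FOXO1, the forkhead factor that fasting frees to enter the nucleus, had muscle means of 32.4 ± 21.6 CPM (SD, n = 16) at LP, 71.4 ± 33.0 at EL and 15.8 ± 15.5 at ML, and so rose and fell with PDK4 (log2 1.14 ± 0.34 and -2.29 ± 0.36, adjusted p 0.00595 and 2.33e-06 by edgeR). PPARGC1A, a coactivator of mitochondrial genes, and ESRRG, a nuclear receptor that works with it, did not pass in either step, with log2 changes from LP to EL of -0.03 and 0.55 (adjusted p 0.947 and 0.140). In liver FOXO1 and PPARGC1A did not pass in either step.

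Of the glucocorticoid and FOXO responsive genes 9 of 15 could be paired. In muscle 4 of the 7 tested rose from LP to EL and none fell, and 4 fell from EL to ML, with a list median of 1.05 for the first step. TRIM63, a ubiquitin ligase of muscle protein breakdown, went from a mean of 144 CPM at LP to 1157 at EL and 79.8 at ML (log2 2.79 ± 0.28 and -3.68 ± 0.29, adjusted p 2.91e-09 and 1.18e-11 by edgeR). FBXO32, the other classical ubiquitin ligase of muscle wasting, changed by 1.29 and -2.63, and FKBP5, a glucocorticoid receptor co-chaperone and target, by 1.70 and -1.89, each past the threshold. In liver none of 8 passed from LP to EL in the main fit. There SGK1, a kinase induced by glucocorticoids, had 0.69 (adjusted p 0.0975 by edgeR). IGFBP1, an IGF-binding protein repressed by insulin, had 1.27 (adjusted p 0.105). Under 6 alternative settings SGK1 passed in 3, IGFBP1 in 2 and FKBP5 in 1. From EL to ML 2 rose and 1 fell in liver, the latter being FKBP5 (log2 -1.49).

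Of 5 insulin signalling genes 2 could be paired. PIK3R1, a regulatory subunit of phosphoinositide 3-kinase, rose in muscle by 0.85 and fell by 0.63 (adjusted p 1.20e-04 and 0.00220 by edgeR). SLC2A4, the insulin-responsive glucose transporter, had -0.36 from LP to EL (adjusted p 0.119) and rose by 1.12 from EL to ML (adjusted p 1.44e-05), and in liver it rose by 0.65 in the second step (adjusted p 0.00434). The list's median in muscle from LP to EL was 0.25. No paired gene of any of these lists passed in a comparison of Fert+ with Fert- cows. Over all genes edgeR called 1 of 12035 in muscle at EL and 0 in each other comparison of the groups, so this holds for nearly every gene.

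The genes whose levels tracked PDK4 most closely were sought among the identifiers with a symbol, by Pearson r of log2(CPM + 1) over the 48 libraries of a tissue. These r values describe libraries that share cows, time-points and scaling. In muscle the 5 highest were ZFAND5 (0.89), PNRC1 (0.89), SLC43A2 (0.87), GLUL (0.87) and SLC7A8 (0.86), with ranks of 1, 2, 5, 6 and 9 among all genes. GLUL makes glutamine, and SLC7A8 and SLC43A2 carry neutral amino acids across the cell membrane. All 5 rose from LP to EL and fell from EL to ML by edgeR's test, SLC7A8 by 3.66 and then -5.20 on the log2 scale and GLUL by 2.30 and -2.89. Such values were common in muscle, where 569 of 12674 genes had an r above 0.7.

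After the mean of each fertility group and time-point was removed, only the variation between cows within groups was left, and UCP3 came first in muscle among all 12674 genes (r 0.72), the only gene above 0.7. SLC43A2 (0.68), WBP1L (0.67), PNRC1 (0.66) and ZFAND5 (0.64) followed among the named genes, where the 99th percentile of all genes was 0.499. By level over all 48 libraries UCP3 also rose and fell with PDK4, as its means above show.

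In liver the 5 highest named genes by level were HDC (0.74), SHMT1 (0.66), SLC27A2 (0.66), IDH1 (0.66) and ACOX2 (0.66), and within groups HDC (0.75), SLC25A34 (0.74), G6PC (0.72), DUSP1 (0.69) and CCRN4L (0.67), where 6 of 13814 genes had an r above 0.7. Their ranks among all 13814 genes were 1, 14, 15, 16 and 17 by level, and 2, 3, 4, 14 and 23 within groups. Ranks without cow 426 were 9, 52, 12, 4 and 16 by level, and 10, 3, 22, 17 and 126 within groups. HDC makes histamine, SLC27A2 and ACOX2 act on fatty acids, and G6PC is the phosphatase that releases glucose at the end of gluconeogenesis. HDC had mean liver levels of only 3.52 CPM at LP, 3.46 at EL and 2.24 at ML, and its r by level was 0.69 without cow 426.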

How the data were processed

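Total RNA was extracted with Trizol and TruSeq v2 libraries were sequenced as read pairs by the authors, who trimmed the reads, aligned them with STAR to UMD3.1, kept proper pairs and counted read pairs per Ensembl gene with featureCounts. The deposited counts are whole-number read pairs per gene, not normalized, 1 file per library. A further 2 tables with 96 columns in all carry no column names and were not used. Counts were analysed in R 4.3.3 with edgeR 4.0.16 (TMM factors, filterByExpr, robust quasi-likelihood test, Benjamini-Hochberg adjustment over all genes tested, threshold 0.05) and DESeq2 1.42.0 as an alternative. Time effects were fitted on the 48 libraries of a tissue with cow as a block, averaged over both fertility groups. Fertility groups were compared on 16 libraries without covariates, tissues on 32 libraries with cow as a block, and the time course between tissues on all 96 with each cow within each tissue as a block. Single-gene tests used log2(CPM + 1), with exact sign-flip or 8 against 8 permutations, and 100000 permutations for correlations (Python 3.11.15, scipy 1.17.1). Scripts were tested on simulated data.

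The cow number in the labels marks the same animal. Deviations from group means correlated above 0.1 in 39 of 48 same-cow pairs in liver and 42 of 48 in muscle (medians 0.235 and 0.258, against -0.019 and -0.018 for different cows). Of 336 pairs of libraries within a group none held identical values. Depth, 14966847 to 26358063 counts per library, was ample for PDK4. Symbols came from the study's gene tables, which name 2247 of 24616 identifiers and include its lists of genes called between fertility groups. How the named genes compare with the others in level was not tested. Named genes were PDK4, every paired gene of its family, the PDH phosphatases and the PDH complex, the 3 of each other list with the smallest p from LP to EL per tissue, and the 5 with the highest r per tissue by level and within groups. The values of 1 gene that this rule names are not reported here. The gene, the lists and the tests were chosen with earlier results of these data known. No genome of the files' build was used, so no coordinates or sequences are given.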

Additional observations from a re-analysis of the deposited data

Results flagged for a closer look

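In 12 groups of 8 cows the highest and lowest PDK4 levels, in CPM without logs, were compared with the rest of their group by Dixon's criterion. Chance passes it in about 1 group in 20 where values are normally distributed. The CPM were skewed towards high values, so that rate need not hold here and high libraries pass more easily. The criterion was not applied on the log2 scale. On the CPM scale 6 libraries stood apart, all of them high. In liver these were cow 426 at LP with 1008 CPM in the Fert- group (next highest 223), cow 3434 with 267 CPM at LP (next highest 142) and 268 CPM at EL (next highest 134) in the Fert+ group, and cow 996 with 522 CPM at EL (next highest 170) and 299 CPM at ML (next highest 144) in the Fert- group. In muscle it was cow 756 with 6667 CPM at EL in the Fert+ group (next highest 4806). The liver library of cow 756 taken at the same time had the lowest PDK4 level of all liver libraries, 14.4 CPM. The liver LP library of cow 426 had a calving score of 1.32, and the liver EL library of cow 3434 one of -0.14, while their part in these levels was not tested.

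The time course of PDK4 differed between tissues by an interaction test (edgeR, all 96 libraries). The change from LP to EL was higher in muscle than in liver by 2.16 ± 0.39 on the log2 scale (adjusted p 1.90e-05), and the change from EL to ML was lower in muscle by -2.82 ± 0.39 (adjusted p 2.84e-08).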

How the results depend on the processing

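In muscle the PDK4 changes kept their direction and passed under all 5 alternatives and when any 1 cow was left out, with log2 values of 1.51 to 1.75 for EL minus LP, -2.70 to -2.43 for ML minus EL and -1.08 to -0.86 for ML minus LP. Without the replicate block, that is without the pairing by cow, they were 1.57, -2.49 and -0.92 (adjusted p 0.0269), and the block changed no PDK4 call in liver or muscle. The muscle minus liver differences in course and level kept their calls under the alternatives tried, and leaving out each cow in the 96-library fit was not run. In liver no PDK4 time effect passed under any alternative (-0.63 to -0.25, 0.05 to 0.25 and -0.41 to -0.12 when any 1 cow was left out), but ML minus EL was -0.076 without the replicate block. Several small liver values changed sign. The Fert+ minus Fert- difference in EL minus LP was -0.44 without cow 426, -0.54 without cows 426 and 3434 and -0.18 without cows 426 and 996 (-0.44 to 0.33 with any 1 cow left out). In Fert- cows ML minus EL was 0.20 without set B and 0.020 without cows 426 and 996 (-0.26 to 0.059), and in Fert+ cows ML minus LP was 0.16 without set B and 0.026 without cows 426 and 3434 (-0.20 to 0.026). In muscle the same held, with any 1 cow left out, for the group difference in ML minus EL (-0.51 to 0.029) and for Fert+ minus Fert- at EL (-0.26 to 0.0060). Muscle ML minus LP in Fert- cows passed without cow 430 (adjusted p 0.0300 by edgeR) and by DESeq2 (adjusted p 0.0275). For Fert+ minus Fert- at LP, PDK4 passed under the common dispersion, at -1.16 in liver and -0.82 in muscle. That test was not repeated with a cow left out. By edgeR's quasi-likelihood test, which PDK4 did not pass with all 16 cows either, leaving out any 1 cow gave -1.48 to -0.30 in liver. In muscle it gave -0.995 to -0.63, with none past in either tissue. The liver EL and ML correlation passed on CPM without logs (r 0.86). Without cow 426 the relation of calving score and liver PDK4 at LP was -0.075. The cause of these changes was not tested.

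Among the other genes, PIK3R1 (ML minus EL, 0.022) and HDC (EL minus LP, 0.15) changed sign in liver without cow 426, G6PC (EL minus LP, -0.073) in liver without set B, and PPARGC1A in muscle without the replicate block (0.56 and -0.57). ESRRG then passed in both steps (0.89 and -0.84), while ACADVL (ML minus EL, -0.18) and WBP1L (EL minus LP, 0.35) in muscle no longer did. Without set B the liver calls of PDHA1 (-0.16) and CCRN4L (-0.86) for ML minus EL were lost, as were those of PC (0.65) and LDHB (0.67) for EL minus LP, which also failed without a gene filter (0.91 and 0.68). Without cow 426 the liver list counts became, for EL minus LP, 1 higher in the PDH complex, 1 in the fatty acid list and 2 in the glucocorticoid list, with 1 lower in the insulin list (each 0 otherwise). For ML minus EL they were 1 higher in the fatty acid list (0 otherwise) and 1 in the glucocorticoid list (2 otherwise). For ML minus LP they were 2 lower in the fatty acid list (4 otherwise) and 1 in the insulin list (0 otherwise). Without the block the glucocorticoid list had 1 higher in liver at EL minus LP (0 otherwise) and 1 at ML minus EL (2 otherwise). It had 1 lower at ML minus LP (0 otherwise). The muscle fatty acid list then had 0 lower in the first step and 0 higher in the second (1 each otherwise). The muscle regulators had 2 in each step (1 each otherwise). Over all genes, liver EL minus LP called 424 genes, against 987 by DESeq2, 250 without a gene filter, 0 without set B (edgeR), 1382 without cow 426, 1972 without cows 426 and 3434 and 1418 without cows 426 and 996. Liver ML minus LP called 2195, against 1152 without set B and 1276 without cows 426 and 3434, and muscle ML minus LP 1190, against 771 without the block. The common dispersion called 306, 301 and 279 genes between fertility groups in liver and 214, 438 and 214 in muscle (LP, EL and ML), a fit of 48 libraries 362 in liver and 564 in muscle at EL, and DESeq2 154 in muscle at EL. The muscle group difference in EL minus LP called 2 genes, against 67 by DESeq2, 1 without a filter or the block and 13 without set B.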

Other observations

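The calving score of a library, built without PDK4, was set against its PDK4 level over the 16 cows at each tissue and time-point. These 6 relations were chosen after the data had been seen. In liver at EL, cows with a higher score had lower PDK4 (Pearson r -0.68, permutation p 0.00390, adjusted p 0.0205; Spearman rho -0.66, adjusted p 0.0185). The r was -0.50 without the 2 farthest cows, -0.68 after removing the mean of each fertility group, -0.64 in the 13 cows of set A, and between -0.71 and -0.58 when any 1 cow was left out. In muscle at EL the relation had the opposite sign (r 0.62, permutation p 0.00869, adjusted p 0.0205; rho 0.73, adjusted p 0.0120), with r 0.44 without the 2 farthest cows, 0.64 within fertility groups and 0.51 in the 14 cows of set A. In muscle at LP r was 0.63 (permutation p 0.0103, adjusted p 0.0205) and rho 0.49 (adjusted p 0.116), with r 0.39 without the 2 farthest cows. On CPM without logs the liver EL relation (r -0.53) and the muscle LP relation (r 0.52) did not pass, each with an adjusted permutation p of 0.0530. The remaining 3 did not pass: liver at LP (r 0.52, adjusted permutation p 0.0762), liver at ML (r 0.38, adjusted permutation p 0.170) and muscle at ML (r 0.37, adjusted permutation p 0.170). Those at ML had the other sign, -0.19 in liver and -0.12 in muscle, without cow 996.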
